A study of Homo sapiens with 12 samples.

Results

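The genes described here are 10 whose products act at human replication origins. *ORC1*, *CDC6* and *CDT1* load the replicative helicase, *MCM2*, *MCM3*, *MCM4*, *MCM5*, *MCM6* and *MCM7* encode its subunits, and *CDC45* switches it on. They were taken by gene name, and all 10 were found under the same Ensembl identifier in both deposited count tables, out of 30984 genes listed for KYSE30, 78691 listed for U138MG and 30358 listed in both. This rule uses no measured value, but the 10 genes and the gene lists below were chosen with earlier results of these data known. Their counts set against all genes are therefore descriptions and not independent support. KYSE30 is an esophageal squamous cell carcinoma line, and U138MG is the line that the study uses as its glioblastoma (GBM) model. PTDSS1i is DS55980254, a small-molecule inhibitor of phosphatidylserine synthase 1 (PTDSS1), an enzyme that makes the membrane lipid phosphatidylserine. Cells of each line, all of WT genotype, received either 100 nM PTDSS1i or the vehicle DMSO for 48 h, and poly-A RNA was sequenced from 3 libraries in each of the 4 groups.

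Origins are licensed in G1 phase, when the origin recognition complex, of which ORC1 is the largest subunit, binds DNA and, with the ATPase CDC6 and the loader CDT1, places double hexamers of MCM2 to MCM7 around it. In S phase CDC45 and the GINS complex join each hexamer to form the active CMG helicase, and geminin (GMNN) and degradation of CDT1 keep origins from being licensed again. Most of these genes are transcribed late in G1 under E2F factors, and they are read widely as marks of cells that are cycling or about to cycle. In RNA from whole cultures, a smaller share of cells that transcribe a gene and less of its RNA in each such cell cannot be told apart.

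Total counts lay between 18800932 and 26514658 per library, and the lowest count of any of the 10 genes in any library was 236, for *ORC1*. Counts were scaled to library size with TMM factors and are given as normalised CPM, counts relative to the scaled size of the library. The batch named in the labels follows the line, so line and batch cannot be told apart in any comparison of the lines. In the libraries labelled U138MG with DMSO, the glial markers *OLIG2* and *S100B* were at 0 and *GFAP* was low, at 2.36 CPM. *VIM*, a mesenchymal gene, was at 0.206 CPM. The epithelial genes *KRT5* and *TP63* were at 1470 and 276 CPM there (all library-size CPM, means of 3). The lists were not uniform, since *KRT14* at 0.198 and *KRT6A* at 0.488 CPM were near 0 there, and *FN1* at 75.8, *SOX2* at 38.9 and *CDH2* at 11.9 CPM were not. In KYSE30 with DMSO *KRT5* was at 0.0608 CPM, *TP63* at 98.2 CPM, *SOX2* at 99.4 CPM and *VIM* also low, at 3.99 CPM. Over 8 glial and mesenchymal markers, of which 4 exceeded 1 CPM with DMSO, the summed level in U138MG was 125 to 134 CPM in DMSO and 60.8 to 67.1 CPM in PTDSS1i, and over the 8 squamous and epithelial markers it was 4828 to 5077 CPM in DMSO and 3173 to 3270 CPM in PTDSS1i. In KYSE30 the 8 squamous and epithelial markers summed to 7778 to 8263 CPM in DMSO and 9888 to 10158 CPM in PTDSS1i, and the glial and mesenchymal markers, of which 6 of the 8 are listed there, to 188 to 231 CPM and 155 to 159 CPM. The name U138MG is therefore used below as a label of those libraries, and the part of these markers in the results was not tested.

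The promoters are shown because the 10 genes are known as E2F targets and moved together in one of the lines. A promoter window, the 250 bases before a RefSeq transcription start on GRCh38.p14, was held for 8 of the 10 genes, and *MCM4* and *MCM5* were not matched. Both strands were searched for the E2F-type 8-base forms TTTCCCGC, TTTCGCGC, TTTGCCGC and TTTGGCGC, which were present in 4 of the 8 (*MCM3*, *MCM6*, *MCM7* and *CDT1*) and in 3.40% of all 27305 genes with a window. The related form TTTGGCGG, added after the windows had been read, was present in 3 of the 8 (*CDC6*, *CDT1* and *CDC45*) and in 0.670% of all genes. One form or another was present in 6 of the 8 genes and in 4.01% of all genes, and *MCM2* and *ORC1* held neither. Because TTTGGCGG was added after that reading, its count and the combined count cannot be read as an excess over all genes. Read 5′ to 3′ on the gene's own strand, with capitals marking every match, the *MCM6* window (chr2:135876444-135876693, minus strand) is shown whole for its repeated pair of overlapping matches, and the others as the 30 bases around each match, so that the forms can be set side by side. *CDC6* is also the gene that moved against the others in one line.
MCM6: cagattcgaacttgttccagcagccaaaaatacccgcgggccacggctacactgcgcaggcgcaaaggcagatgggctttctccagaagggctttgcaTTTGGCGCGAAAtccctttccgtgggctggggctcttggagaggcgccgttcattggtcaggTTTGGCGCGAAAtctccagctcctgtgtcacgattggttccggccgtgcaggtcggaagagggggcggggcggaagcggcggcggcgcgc
MCM3: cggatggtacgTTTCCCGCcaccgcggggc
MCM7, upstream: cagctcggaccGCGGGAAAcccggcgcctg
MCM7, at the start: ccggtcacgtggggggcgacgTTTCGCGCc
CDT1: ggcgcccGCGGGAAATTTGGCGGgaaccgc
CDC45: aggagccgtgaTTTGGCGGgagtcttgacc
CDC6: cgaggccgggcTTTGGCGGgaggtgggaac
These stretches lie at chr6:52284898-52284927 for *MCM3*, chr7:100101566-100101595 and chr7:100101398-100101427 for *MCM7* (all minus strand), and at chr16:88803747-88803776 for *CDT1*, chr22:19479884-19479913 for *CDC45* and chr17:40287840-40287869 for *CDC6* (all plus strand). In *MCM6* the matches began 152, 148, 90 and 86 bases before the start, and both pairs read TTTGGCGCGAAA. In *CDT1* they began 35 and 27 bases before the start, in *CDC45* 25 bases and in *CDC6* 28 bases. The *MCM6* and *MCM3* matches lie outside the exons of their gene in GENCODE 29. The *MCM7*, *CDT1*, *CDC45* and *CDC6* matches lie inside annotated exons of their gene, which starts further upstream there. *CDC45* and *MCM7* have 3 RefSeq windows each, and only the first of each held a match. The letters CCAAT, which overlap none of these forms, were present in 6 of the 8 genes and in 37.0% of all genes with a window, and TTTGAA was present in 0 of the 8 and in 16.1% of all genes. A match is a stretch of letters and says nothing about whether a factor was bound in these cells.

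PTDSS1i lowered all 10 genes in KYSE30, by 2.94-fold for *CDC6* to 4.64-fold for *MCM5*. In the libraries labelled U138MG the same dose and time lowered 9 of the 10, by 1.17-fold for *MCM5* to 1.72-fold for *MCM3*, and raised *CDC6* 1.27-fold. For *MCM5* the U138MG groups overlapped, and its call was lost when some single libraries were left out. Every one of the 10 changes differed between the lines, as did those of 9188 of all 18405 genes tested, in either direction. Of all genes tested, 32.0% were called lower in KYSE30 and 33.6% in U138MG.

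PTDSS1i and DMSO were first compared in KYSE30, starting with the loading factors. *ORC1* was at 53.3, 43.6 and 52.6 normalised CPM in DMSO and at 12.3, 12.0 and 12.5 in PTDSS1i. *CDC6* was at 92.2, 80.2 and 89.5 normalised CPM in DMSO and at 29.1, 28.7 and 31.2 in PTDSS1i. *CDT1* was at 109, 106 and 106 normalised CPM in DMSO and at 28.2, 29.8 and 30.8 in PTDSS1i. For each of the 3 loaders every treated library lay far below every DMSO library. DMSO replicate 2 was the lowest of its group for *ORC1* and *CDC6*, as it was for *CDC45* and every helicase subunit, though not for *CDT1*. The log2 fold changes were -2.02 for *ORC1* (SE 0.082), -1.56 for *CDC6* (SE 0.065) and -1.85 for *CDT1* (SE 0.057).

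The subunits of the helicase followed. *MCM2* was at 319, 294 and 296 normalised CPM in DMSO and at 75.9, 73.7 and 76.0 in PTDSS1i. *MCM3* was at 347, 327 and 333 normalised CPM in DMSO and at 96.7, 90.4 and 96.0 in PTDSS1i. *MCM4* was at 531, 471 and 505 normalised CPM in DMSO and at 156, 151 and 155 in PTDSS1i. The treated libraries of each gene lay close together, and no treated value came near a DMSO value. *MCM5* was at 181, 163 and 166 normalised CPM in DMSO and at 35.2, 37.4 and 37.4 in PTDSS1i. *MCM6* was at 163, 155 and 166 normalised CPM in DMSO and at 37.0, 38.6 and 36.4 in PTDSS1i. *MCM7* was at 516, 484 and 490.0 normalised CPM in DMSO and at 160.0, 159.9 and 160.5 in PTDSS1i. Again the groups did not overlap, and the spread among treated libraries was narrow. The log2 fold changes were -2.21 for *MCM5* (SE 0.058), -2.11 for *MCM6* (SE 0.055), -2.01 for *MCM2* (SE 0.053), -1.83 for *MCM3* (SE 0.052), -1.71 for *MCM4* (SE 0.055) and -1.63 for *MCM7* (SE 0.051).

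*CDC45*, the activator, was at 106, 90.7 and 98.2 normalised CPM in DMSO and at 24.4, 22.8 and 24.2 in PTDSS1i, a log2 fold change of -2.05 (SE 0.066). All 10 genes passed the edgeR quasi-likelihood test, Benjamini-Hochberg adjusted over the 16389 genes tested, with adjusted p from 8.23e-18 for *MCM6* to 8.65e-15 for *CDC6*. The background was high, since 32.0% of all genes tested were called lower by this rule. With a log2 fold change under -1 as well, 10 of the 10 were called against 7.04% of all genes, and the groups did not overlap, with PTDSS1i lower, for 10 of the 10 against 34.2% of all genes. The median log2 fold change was -1.93 over the 10 and -0.03 over all genes tested. No left-out library and no other scaling or tool ended any of these 10 calls.

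**Figure D1:**
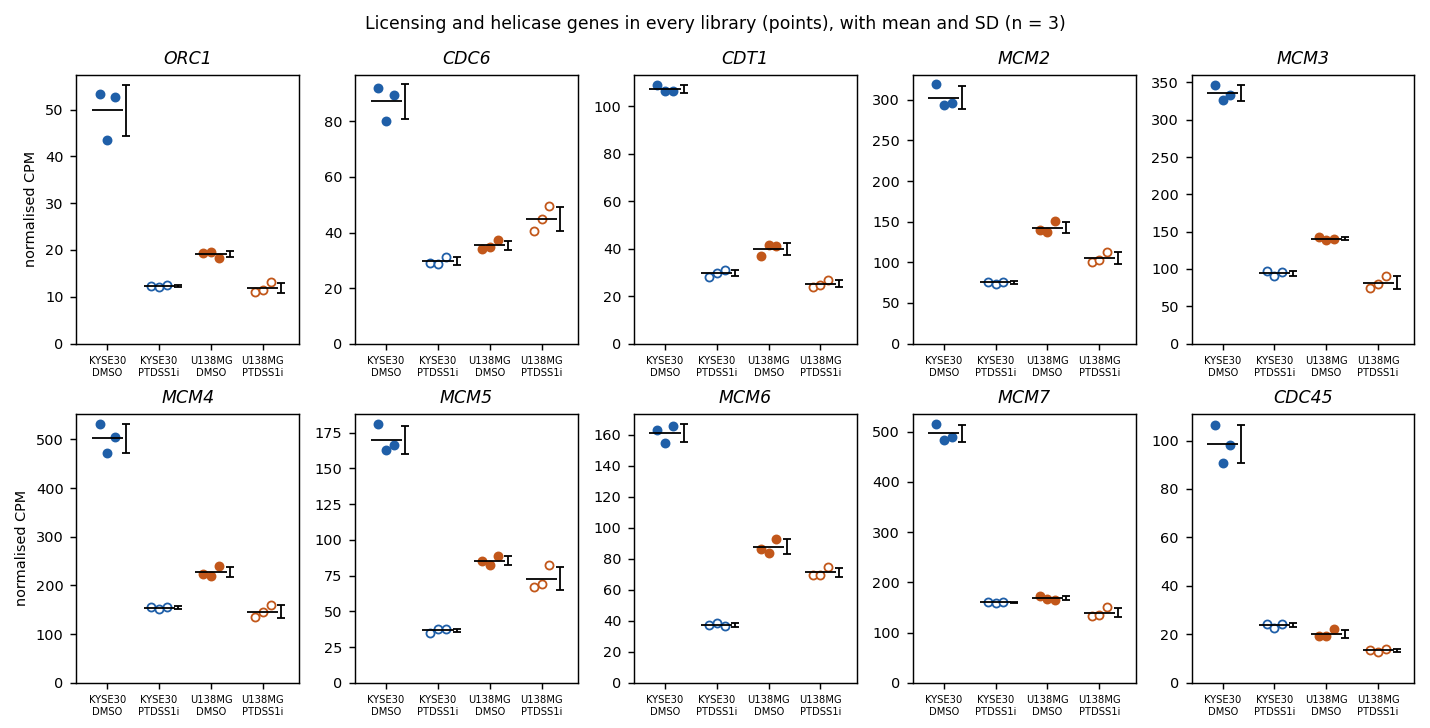
Normalised CPM (linear axes from 0) of the 10 genes in all 12 libraries, one panel per gene, with DMSO as filled and PTDSS1i as open points, blue for KYSE30 and orange for the libraries labelled U138MG. Black lines are means and bars SD (n = 3). In KYSE30 every open point sits far below the filled ones, in U138MG the gap is smaller, and *CDC6* goes up.

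The same comparison in the libraries labelled U138MG gave smaller changes. *ORC1* was at 19.4, 19.6 and 18.3 normalised CPM in DMSO and at 11.0, 11.4 and 13.1 in PTDSS1i, and *CDT1* was at 36.7, 41.3 and 41.1 in DMSO and at 24.0, 24.6 and 26.8 in PTDSS1i. Both loaders were lower in every treated library, with log2 fold changes of -0.69 (SE 0.088) for *ORC1* and -0.66 (SE 0.066) for *CDT1*. *CDC6* was at 34.1, 34.8 and 37.2 normalised CPM in DMSO and at 40.5, 44.7 and 49.4 in PTDSS1i. Here every treated library lay above every DMSO library, and the log2 fold change was 0.34 (SE 0.065, adjusted p = 6.32e-05, edgeR quasi-likelihood test, Benjamini-Hochberg adjusted). In the same test 33.9% of all genes were called higher. *CDC6* kept its sign and its call in 14 of 14 other analyses, with log2 values from 0.20 with library size alone as the scaling to 0.43 without PTDSS1i replicate 1.

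Among the helicase subunits in U138MG, *MCM3* fell most. It was at 142, 139 and 140.1 normalised CPM in DMSO and at 74.4, 80.0 and 90.7 in PTDSS1i, a log2 fold change of -0.78 (SE 0.058). *MCM4* was at 225, 219 and 239 normalised CPM in DMSO and at 135, 145 and 159.6 in PTDSS1i, a log2 fold change of -0.64 (SE 0.061). *MCM2* was at 139.6, 137.9 and 150.4 normalised CPM in DMSO and at 100.1, 102 and 113 in PTDSS1i, a log2 fold change of -0.44 (SE 0.046). In these 3 genes the treated libraries stayed below the DMSO libraries, and PTDSS1i replicate 3 was the highest treated library, as it was for all 10 genes. *MCM6* was at 86.3, 83.5 and 92.9 normalised CPM in DMSO and at 69.2, 69.4 and 74.8 in PTDSS1i, a log2 fold change of -0.30 (SE 0.047). *MCM7* was at 173, 167 and 165 normalised CPM in DMSO and at 134, 135 and 150.5 in PTDSS1i, a log2 fold change of -0.27 (SE 0.041). These were small shifts without overlap between the groups.

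*MCM5*, which fell most in KYSE30, moved least in U138MG. It was at 85.3, 82.2 and 88.7 normalised CPM in DMSO and at 67.4, 69.4 and 82.2 in PTDSS1i, a log2 fold change of -0.22 (SE 0.071, adjusted p = 0.0168, edgeR quasi-likelihood test, Benjamini-Hochberg adjusted). The groups overlapped, because PTDSS1i replicate 3 reached the lowest DMSO library, replicate 2. The call was lost without DMSO replicate 1 (log2 fold change -0.22, adjusted p = 0.0563 in the same test), without DMSO replicate 3 (-0.19, 0.0922), without PTDSS1i replicate 1 (-0.16, 0.0523) and without PTDSS1i replicate 2 (-0.18, 0.0806). *CDC45* was at 19.3, 19.2 and 22.2 normalised CPM in DMSO and at 13.5, 12.6 and 14.1 in PTDSS1i, a log2 fold change of -0.60 (SE 0.086).

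Over the 17666 genes tested in U138MG, 9 of the 10 were called lower against 33.6% of all genes, so this count by itself is set against a wide background. Passing a log2 fold change of -1 was seen for 0 of the 10 and for 11.6% of all genes, and 8 of the 10 were lower without overlap against 35.9% of all genes. The median log2 fold change was -0.52 over the 10 and -0.03 over all genes. With library size alone as the scaling the median over all genes moved to -0.17 and that over the 10 genes to -0.67, and upper-quartile scaling gave -0.17 and -0.66, so that in both the distance between the 10 genes and all genes stayed close to that with TMM. These scalings also moved the split of calls over all genes, from 49.8% lower with TMM to 62.9% with either of them, and in KYSE30 library size alone moved it from 51.5% to 62.2%.

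**Figure D2:**
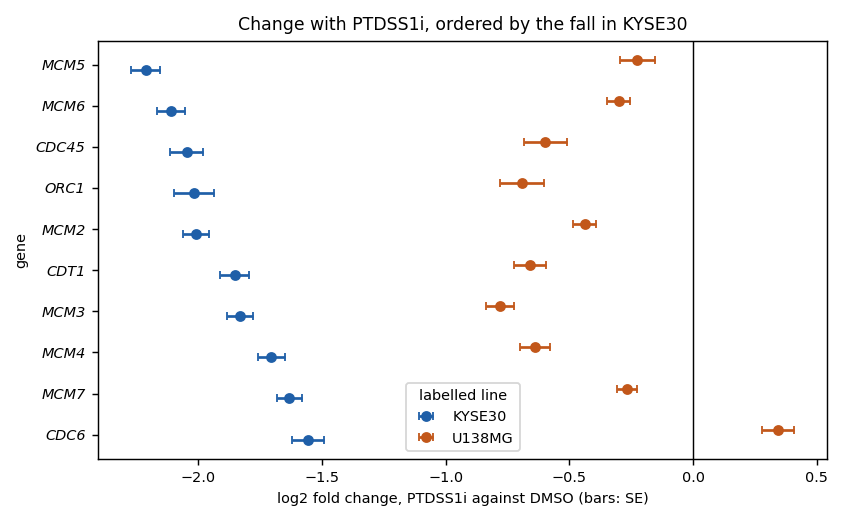
Log2 fold change of PTDSS1i against DMSO (x axis) for the 10 genes (y axis, ordered by KYSE30), with SE bars, blue for KYSE30 and orange for the libraries labelled U138MG. KYSE30 values lie between -2.21 and -1.56 and U138MG values between -0.78 and 0.34, and *MCM5* leads one order while *MCM3* leads the other.

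The size of the fall was then compared between the lines as the interaction of line and treatment over 18405 genes. The effect in U138MG lay above that in KYSE30 for 10 of the 10 genes, against 25.5% of all genes, with a median difference of 1.37 on the log2 scale. The difference was widest for *MCM5*, at 1.95 (95% interval 1.77 to 2.12), and for *CDC6*, at 1.86 (1.67 to 2.05). It was narrowest for *MCM3*, at 1.01 (0.862 to 1.16), and for *MCM4*, at 1.03 (0.875 to 1.18). The intervals of *MCM5* and *CDC6* do not meet those of *MCM3* and *MCM4*. Between them lay *MCM6* at 1.77 (SE 0.074), *MCM2* at 1.53 (SE 0.072), *CDC45* at 1.41 (SE 0.11), *MCM7* at 1.33 (SE 0.066), *ORC1* at 1.29 (SE 0.12) and *CDT1* at 1.15 (SE 0.086). Adjusted p for the 10 differences ran from 7.27e-19 for *MCM6* to 2.13e-10 for *ORC1* (edgeR quasi-likelihood test, Benjamini-Hochberg adjusted).

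The lines also started from different levels. MCM2 to MCM7 together took 1969 ± 82.5 normalised CPM (SD, n = 3) in KYSE30 with DMSO and 852 ± 24.5 in U138MG with DMSO. With PTDSS1i the sums were 558 ± 5.89 in KYSE30 and 617 ± 47.9 in U138MG, with treated libraries at 551 to 561 and at 580 to 671. Thus KYSE30 was the higher line without the inhibitor and its treated libraries lay below those of U138MG, although the lines were counted in separate tables and this order of levels was not tested. *CDC45* stood further apart at the start, with 98.4 ± 7.82 normalised CPM in KYSE30 and 20.2 ± 1.73 in U138MG with DMSO.

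Per kilobase of annotated exon, *MCM7* was the most abundant of the 10 in KYSE30, at 113 ± 3.91 normalised CPM per kilobase with DMSO, followed by *MCM3* at 92.0 ± 2.80, *MCM4* at 72.1 ± 4.27, *MCM2* at 61.8 ± 2.84 and *MCM6* at 39.1 ± 1.40. *CDC45* at 34.6 ± 2.75 and *CDT1* at 32.1 ± 0.487 overlapped, *MCM5* came next at 23.2 ± 1.32, and *ORC1* at 15.8 ± 1.72 and *CDC6* at 15.7 ± 1.14 overlapped at the bottom. With PTDSS1i *MCM7* still led in KYSE30, at 36.5 ± 0.0744, and *ORC1* was lowest, at 3.89 ± 0.0831. In U138MG with DMSO *MCM3* at 38.5 ± 0.461 and *MCM7* at 38.4 ± 0.887 overlapped at the top, and *CDC6* at 6.37 ± 0.286 and *ORC1* at 6.06 ± 0.227 at the bottom. With PTDSS1i *CDC6* was at 8.07 ± 0.807 there and overlapped *CDT1* at 7.54 ± 0.450, from which it had been apart with DMSO.

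Place in this order depends on the length used. The exon length counts every annotated transcript, 7338 bases for *MCM5* and 6973 for *MCM4*, whereas the longest transcript tagged as principal has 3534 and 4183 bases. By that length *MCM5* moved above *CDT1* and *MCM6* in KYSE30 with DMSO, at 48.1 ± 2.75 normalised CPM per kilobase, and *MCM4* moved above *MCM3*, at 120.1 ± 7.13. *MCM7* was first in all 4 groups by that length, though in U138MG with DMSO its libraries overlapped those of *MCM4*. In U138MG with PTDSS1i *CDC6* at 9.33 ± 0.932 and *CDT1* at 7.76 ± 0.463 did not overlap by that length. Nor did *CDC6* at 7.35 ± 0.331 and *ORC1* at 6.06 ± 0.227 in U138MG with DMSO.

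The shares of the 6 subunits in the hexamer's transcripts shifted as well. In KYSE30 *MCM7* made up 28.2 ± 0.245% of the per-kilobase sum of the 6 with DMSO and 32.1 ± 0.327% with PTDSS1i, and *MCM4* went from 17.9 ± 0.420% to 19.4 ± 0.139%. *MCM2* went from 15.4 ± 0.223% to 13.5 ± 0.0794%, *MCM6* from 9.75 ± 0.314% to 7.97 ± 0.337% and *MCM5* from 5.77 ± 0.115% to 4.39 ± 0.183%. For these 5 the libraries of the groups did not overlap, while *MCM3*, at 22.9 ± 0.203% and 22.7 ± 0.587%, did overlap. In U138MG *MCM7* also gained, from 22.4 ± 0.804% to 25.7 ± 0.378%, but *MCM5* and *MCM6* gained as well, from 6.79 ± 0.0869% to 8.02 ± 0.274% and from 12.4 ± 0.385% to 14.0 ± 0.456%. There *MCM3* lost share, from 22.5 ± 0.536% to 18.0 ± 0.510%, as did *MCM4*, from 19.0 ± 0.445% to 16.9 ± 0.332%. With 3 libraries against 3, an exact two-sided permutation test of one share cannot go below p = 0.1, so none was run.

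**Figure D3:**
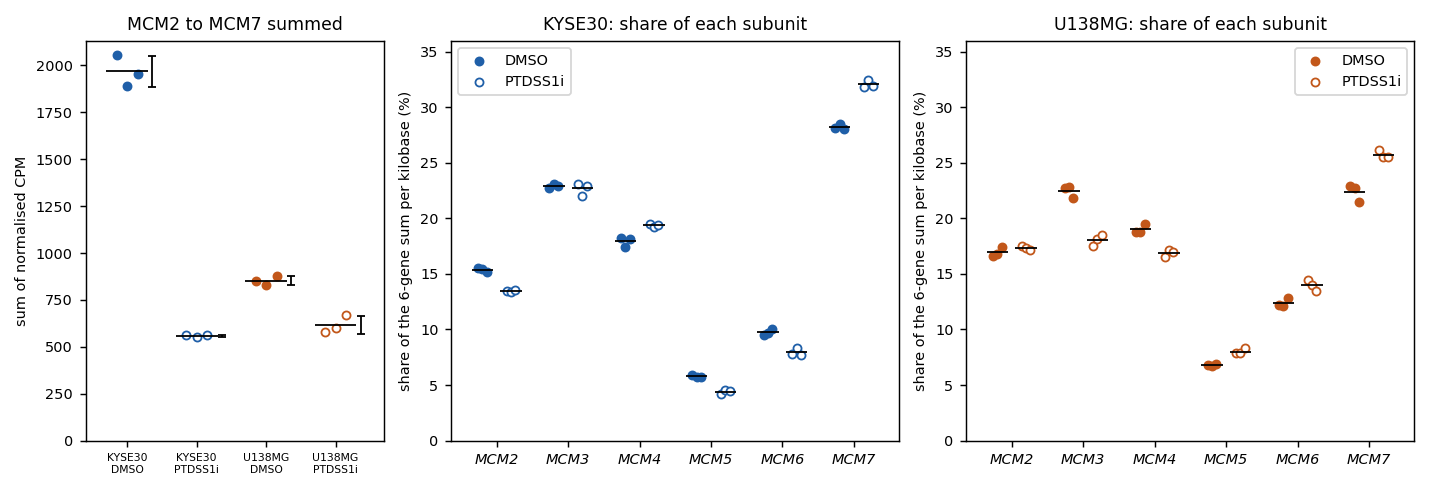
Left, the sum of normalised CPM over *MCM2* to *MCM7* in each library with mean and SD (n = 3); centre and right, the share of each subunit in the per-kilobase sum (%), DMSO filled and PTDSS1i open, black lines for means. The sums fall to 558 and 617 from 1969 and 852, *MCM7* gains share in both lines, and *MCM4*, *MCM5* and *MCM6* shift in opposite directions between them.

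The loaders were also set against one another and against geminin, the inhibitor that binds CDT1. *GMNN* fell by 1.39 on the log2 scale in KYSE30 (SE 0.065) and by 0.54 in U138MG (SE 0.059). The ratio of *CDT1* to *GMNN* per kilobase went from 1.22 ± 0.0633 to 0.884 ± 0.0178 in KYSE30, without overlap between the groups. With the principal transcript lengths the same ratio went from 0.641 to 0.464, and on counts from 1.65 to 1.19, so its side of 1 depends on the length used while the direction of the change does not. In U138MG it was 0.741 ± 0.0536 with DMSO and 0.681 ± 0.0313 with PTDSS1i, and the groups overlapped. The ratio of *CDC6* to *CDT1* went from 0.489 ± 0.0311 to 0.601 ± 0.0215 in KYSE30 and from 0.536 ± 0.0273 to 1.07 ± 0.0494 in U138MG, without overlap in either line.

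**Figure D4:**
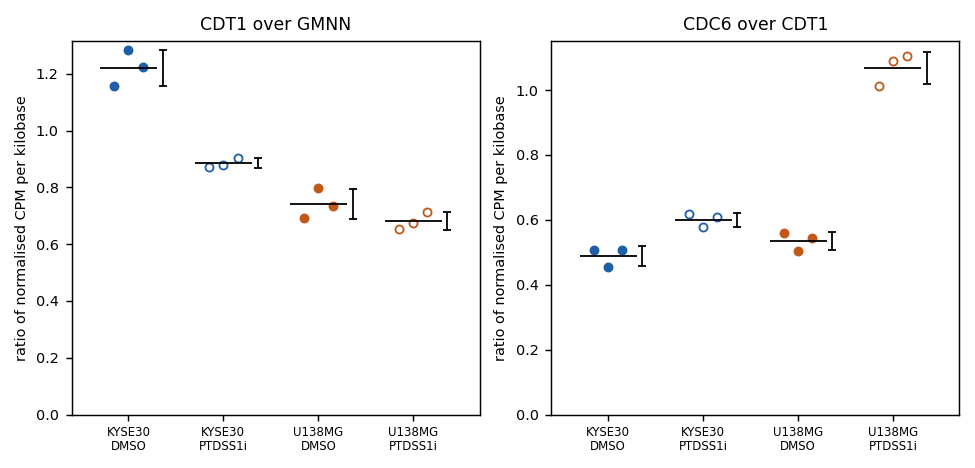
Ratio of normalised CPM per kilobase in each library for *CDT1* over *GMNN* (left) and *CDC6* over *CDT1* (right), axes from 0, DMSO filled and PTDSS1i open, with mean and SD (n = 3). The right panel shows U138MG going from 0.536 to 1.07 with PTDSS1i, the left panel KYSE30 going from 1.22 to 0.884.

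Lists of related genes can be read against all genes tested, of which 30.1% were called higher in KYSE30 and 24.4% had a U138MG effect below that in KYSE30, beside the shares given above. The other origin recognition genes had log2 values nearer to 0 than *ORC1*. In KYSE30 6 of the 8 origin partners were called lower and 0 higher, with a median log2 fold change of -0.57, and in U138MG 0 were called lower and 2 higher, with a median of 0.04. *ORC6*, a small subunit of the complex, fell by 1.68 on the log2 scale in KYSE30 (SE 0.071) and was at -0.06 in U138MG (SE 0.075, adjusted p = 0.459, edgeR quasi-likelihood test, Benjamini-Hochberg adjusted). *ORC3*, a core subunit, fell by 1.04 in KYSE30 (SE 0.062) and rose by 0.52 in U138MG (SE 0.058). *ORC2* and *ORC5*, also core subunits, fell by 0.53 and 0.66 in KYSE30 and were at -0.07 and -0.18 in U138MG. *ORC4* did not pass the test in either line, at -0.03 (SE 0.064) and 0.10 (SE 0.055). *MCMBP*, which binds MCM subunits, fell by 0.62 in KYSE30 and was called higher in U138MG at 0.13 (SE 0.047), a sign that turned with library size alone (-0.016) and with upper-quartile scaling (-0.014).

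Regulators of licensing were mixed. Of 12, 8 were called lower and 1 higher in KYSE30 (median log2 fold change -1.19), and 9 lower and 2 higher in U138MG (median -0.42). *DTL*, the substrate receptor of the CUL4 ligase that degrades CDT1, fell by 2.10 on the log2 scale in KYSE30 (SE 0.067) and by 0.30 in U138MG (SE 0.069). *SKP2*, a receptor of another ligase that targets CDT1, fell by 1.48 and 0.88. Cyclin genes did not move alike, since *CCNE1* fell by 1.03 in KYSE30 and rose by 0.52 in U138MG, *CCNE2* fell by 1.87 and 1.01, and *CCNA2* fell by 1.70 and 1.55. For *CCNA2* the difference between the lines was 0.11 (95% interval -0.0603 to 0.284). *FZR1*, the activator of the anaphase-promoting complex in G1, was at -0.03 in KYSE30 (SE 0.056) and fell by 0.62 in U138MG (SE 0.064).

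With *CDC45* act the genes that convert loaded MCM into a running helicase. In KYSE30 14 of 14 were called lower (median log2 fold change -1.53), and in U138MG 10 were called lower and 2 higher (median -0.48). The GINS genes *GINS2* and *GINS4* fell by 2.01 and 2.02 on the log2 scale in KYSE30 and by 0.61 and 0.54 in U138MG. *MCM10*, which assists the activated helicase, fell by 2.02 in KYSE30 (SE 0.084) and was at -0.08 in U138MG (SE 0.11). *DBF4*, the regulatory subunit of the CDC7 kinase, and *DONSON*, which helps bring GINS to the helicase, were the pair called higher in U138MG, by 0.38 (SE 0.072) and 0.46 (SE 0.069), after falls of 0.94 and 0.80 in KYSE30. *CDC7* itself fell by 1.29 and 0.60. Of the MCM relatives that take part in recombination, *MCM8* fell by 1.30 in KYSE30 and was at -0.02 in U138MG (SE 0.077), and *MCM9* fell by 0.51 and 0.36.

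Downstream at the replication fork, 31 of 31 genes were called lower in KYSE30 (median log2 fold change -1.49), and 26 lower and 1 higher in U138MG (median -0.48). *PCNA*, the sliding clamp, fell by 1.64 and 0.43 on the log2 scale, and *POLE2*, a subunit of DNA polymerase epsilon, by 2.22 and 0.81. *CHAF1B*, a histone chaperone subunit, fell by 2.12 and 0.42, *PRIM1*, a primase subunit, by 2.02 and 0.93, and *TYMS*, thymidylate synthase, by 1.91 and 1.22. The effect in U138MG lay above that in KYSE30 for 29 of the 31.

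Mitotic genes did not show this gap between the lines. Of 22, 21 were called lower in KYSE30 (median log2 fold change -1.54) and 22 in U138MG (median -1.65), and 22 of the 22 passed a log2 fold change of -1 in U138MG, where 0 of the 10 licensing and helicase genes did. *CDK1*, the mitotic kinase, fell by 1.48 and 1.26 on the log2 scale, with a difference of 0.19 (95% interval -0.0083 to 0.380). *MKI67*, the proliferation marker, fell by 1.71 and 2.29, and *KIF20A*, a kinesin of cytokinesis, by 1.73 and 2.34. The kinetochore genes *CENPE* and *CENPF* had the largest falls of the list in both lines, by 2.28 (SE 0.36) and 2.95 (SE 0.14) for *CENPE* and by 2.22 (SE 0.39) and 2.93 (SE 0.21) for *CENPF*. Their differences between the lines, -0.71 (95% interval -1.60 to 0.184) and -0.75 (-1.63 to 0.134), did not pass the test. The effect in U138MG lay above that in KYSE30 for 1 of the 22 and below it for 9, with a median difference of -0.18, against 1.37 for the licensing and helicase genes.

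Among the E2F and RB family genes 15 of 18 were called lower and 1 higher in KYSE30 (median log2 fold change -0.57), and 8 lower and 7 higher in U138MG (median 0.04). *E2F1*, an activator, fell by 1.62 in KYSE30 (SE 0.063) and was at 0.15 in U138MG (SE 0.078, adjusted p = 0.107, edgeR quasi-likelihood test, Benjamini-Hochberg adjusted). *E2F2*, another activator, fell by 2.00 and 1.57. The repressor *E2F7* fell by 1.68 in KYSE30 and rose by 0.87 in U138MG, and the related repressor *E2F8* fell by 1.98 and 2.06.

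**Figure D5:**
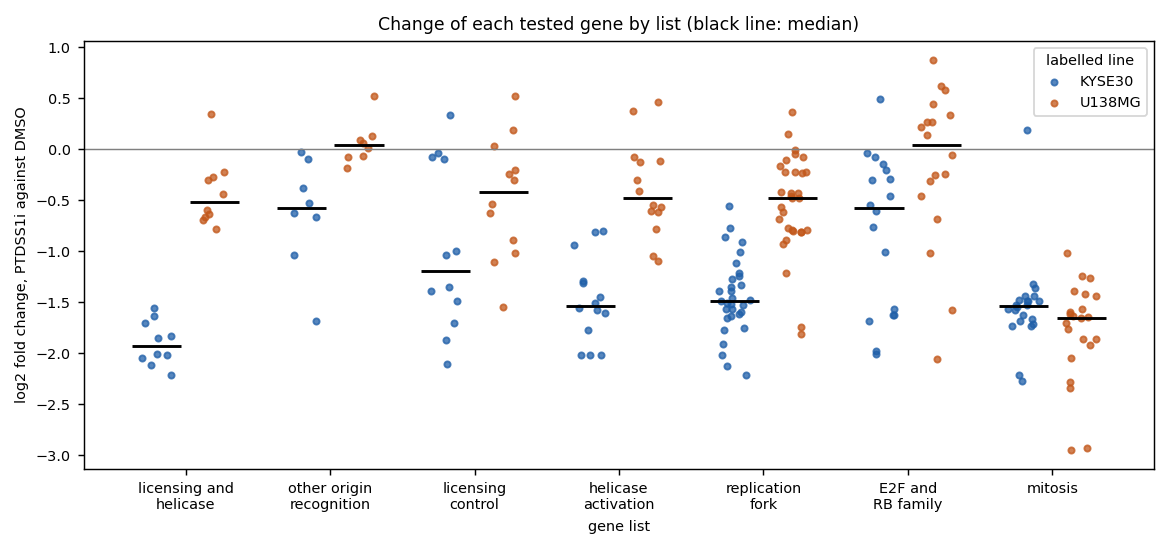
Log2 fold change of PTDSS1i against DMSO (y axis) for each tested gene of 7 lists (x axis), blue for KYSE30 and orange for the libraries labelled U138MG, with black lines at medians. Licensing and helicase genes have medians of -1.93 and -0.52, mitotic genes -1.54 and -1.65.

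Genes with the pattern most like the mean of the 10 over the 12 libraries, by root mean square difference of log2 CPM centred on the mean of each line, among 10270 genes, were *GINS4* (0.0669), *WDHD1* (0.0776), *NEIL3* (0.0780), *RFC3* (0.0825), *RMI2* (0.0931), *GINS2* (0.0935), *DTL* (0.0948) and *PCNA* (0.100). Among the 10 themselves *MCM2* lay closest to their mean, at 0.0455, and *CDC6* farthest, at 0.298. The measure is a description over 12 libraries that share their treatment and line, and no test goes with it.

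Exons of *MCM2* overlap those of *TPRA1* and of the antisense gene AC023593.1, which together cover 23.6% of its exon length, and exons of *MCM7* overlap those of *AP4M1* over 8.94%. The library kit does not mark strand, so reads in these stretches cannot be given to one gene with certainty. AC023593.1 had at most 1 count in KYSE30, whereas in U138MG it went from 21.6 to 13.0 normalised CPM, a log2 fold change of -0.73. Whether the separate count tables of the lines treated reads of this stretch alike is not known. Its part in the *MCM2* values and in their difference between the lines was not tested. *TPRA1* was at 37.6 and 39.1 normalised CPM in KYSE30 and went from 47.0 to 96.4 in U138MG, and *AP4M1* went from 10.6 to 8.72 in U138MG. The other 8 genes share no exon bases with another annotated gene.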

How the data were processed

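RNA-seq libraries from KYSE30 and U138MG cells treated with PTDSS1i or DMSO (12 in all) were analysed from the raw counts that the authors deposited, whole reads per gene and library, not normalised, with one table per line. The submitters' processing notes name Trimmomatic, STAR, featureCounts and hg38 without versions. Gene annotation and strand setting are not given in the sources used here, and the TruSeq v2 kit does not mark strand. Libraries were grouped and numbered as in their labels. Nothing says whether the replicate libraries came from separate cultures, so p-values measure the spread between these libraries, which may be technical. All replicate pairs differed beyond counting noise (chi-square per degree of freedom of 2.29 to 7.44), so each library was kept.

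Counts were filtered by edgeR's filterByExpr (minimum count 10, minimum total 15), scaled by TMM and tested with robust quasi-likelihood fits in edgeR, p being adjusted over all genes tested by the Benjamini-Hochberg method, with a threshold of 0.05, within each line and as the interaction of line and treatment (R 4.3.3, edgeR 4.0.16, limma 3.58.1, DESeq2 1.42.0, and for figures Python 3.11.15, pandas 2.3.3 and matplotlib 3.10.9). Normalised CPM uses TMM factors of 0.946 to 1.06, log2 CPM a prior count of 2, and replicate spread is given as SD. The SE of a log2 fold change was derived from that value and the F statistic of its test. The 95% intervals use a normal multiplier of this SE and may be too narrow with so few libraries. All 10 genes passed the filter in both lines. Per-kilobase values use the exon union of GENCODE 29, which may not be the authors' annotation. The tests were tried on simulated counts.

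The 10 genes and all gene lists were chosen with earlier results of these data known. Named genes were the 10 themselves, genes of the origin, licensing control, activation and MCM lists, of the fork, E2F and mitosis lists the 4 largest changes or fewer together with *PCNA*, *E2F1* and *CDK1*, and the 8 genes most like the 10. Replicate numbers were not used to pair the libraries in the main tests. Alternatives were other scalings, DESeq2, other filters, a replicate block, both lines fitted together, and each library left out. The motif TTTGGCGG and the principal transcript length were added after the data had been seen.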

Additional observations from a re-analysis of the deposited data

Results flagged for a closer look

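The effect of PTDSS1i differed between the lines, by a test of the difference itself, for each of the 10 licensing and helicase genes. Given as the log2 fold change in U138MG minus that in KYSE30, the difference was 1.53 for *MCM2*, 1.01 for *MCM3*, 1.03 for *MCM4*, 1.95 for *MCM5*, 1.77 for *MCM6*, 1.33 for *MCM7*, 1.29 for *ORC1*, 1.86 for *CDC6*, 1.15 for *CDT1* and 1.41 for *CDC45*. For *CDC6* every treated library moved down in KYSE30 and up in U138MG, whereas the other 9 were called lower in both lines. The *MCM5* call in U138MG was lost when some single libraries were left out. Line, labelled batch and count table change together, so their parts in these differences cannot be told apart. The lines also differed in this test for 9188 of the 18405 genes tested, in either direction.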

How the results depend on the processing

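Of the log2 values of the 10 genes under other settings, 466 kept their direction and their side of the threshold, and 4 lost the call, all for *MCM5* in U138MG, whose values with one library left out ran from -0.31 to -0.16. With library size alone the median log2 value of the 10 was -2.04 in KYSE30 and -0.67 in U138MG, and with upper-quartile scaling it was -0.66 in U138MG and 1.26 for the difference between the lines. Requiring 10 counts in every library left 1273 genes of all tested past a log2 fold change of -1 in U138MG, against 2048. All genes called lower there went from 5930 to 5446. This filter drops any gene with a low count in a single library, treated ones included. *MCMBP* in U138MG turned to -0.016 with library size alone and to -0.014 with upper-quartile scaling, and the cause was not tested. Upper-quartile scaling also moved the median of all genes for the difference between the lines from -0.03 to -0.13. Deviations of same-numbered libraries correlated weakly, at 0.0754, 0.0721 and 0.0204 in KYSE30 and 0.00881, -0.00288 and 0.0484 in U138MG. Different-numbered libraries correlated at -0.0760 to 0.00613 in KYSE30, below each same-numbered value, and at -0.0638 to 0.0559 in U138MG. Whether the replicate numbers mark pairs is therefore not settled by these values. With the replicate block 10 of the 10 genes were lower in KYSE30, 9 lower and 1 higher in U138MG, and 10 differed between the lines, with *MCM5* in U138MG at -0.23 (adjusted p = 2.41e-05, edgeR quasi-likelihood test, Benjamini-Hochberg adjusted). The block changed none of these calls. Shares and ratios per kilobase moved with the length used. Depth did not limit the 10 genes, the lowest count being 236.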
